A study of Homo sapiens with 9 samples.

Results

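The genes described here are the subunits of potassium channels, voltage-gated calcium channels and nicotinic acetylcholine receptors in cultures of the human mammary epithelial line MCF10A. They were taken by gene symbol alone. Symbols of the form KCN plus letters and a number gave the potassium channels, symbols starting with CACNA1, CACNA2D, CACNB or CACNG gave the calcium channels, and symbols starting with CHRN gave the nicotinic receptors. This rule found 137 genes among the 60199 symbols of the count table. The set was chosen with the rise of CHRNA9 in the M1B26 line already known, so the level of CHRNA9 in that line is given as a description.

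Poly-A RNA of 9 cultures was sequenced. MCF10A is an immortalised, non-malignant line of mammary epithelial origin whose CDKN2A locus is deleted and whose MYC is amplified, and every culture shares this background. CT was untransformed MCF10A with no added factors. MC26 and M1B26 were transformed lines obtained under long exposure to BMP2 and IL6 and kept with both factors in the medium, MC26 from unsorted cells and M1B26 from cells sorted for the BMP receptor BMPR1B. M1B26 was expanded from 3 clones picked in soft agar, and whether its 3 libraries are those clones is not given in the sources used here. Each group had 3 cultures, told apart by a replicate number, and p-values therefore measure the spread between cultures of 1 line. The effects of the factors, the sort and the picking of clones cannot be told apart.

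As background, a channel is built from pore-forming subunits, which make the path for the ion, and accessory subunits, which change its gating or bring it to the membrane. Potassium channels set the resting potential and thereby the driving force for calcium entry. Voltage-gated calcium channels open on depolarisation and are best known from nerve and muscle. Nicotinic receptors are rings of 5 subunits that open on binding acetylcholine, and those holding the α7 or α9 subunit pass calcium well. Epithelial cells rely mainly on potassium channels that are open at rest or open on a rise of calcium.

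Total counts ran from 21425118 to 80076597 per library, so the detection floor of 3 counts lay between 0.0366 and 0.131 CPM, which are counts scaled to a library of 1000000. All 8 basal and general epithelial markers examined were detected in these cultures, KRT5 at 4633 CPM or more in every library. Their levels were not all steady. KRT14 lay at 42.2 to 61.7 CPM in CT, 766 to 1521 CPM in MC26 and 461 to 625 CPM in M1B26. EPCAM lay at 65.6 to 74.4 CPM in CT, 11.7 to 19.1 CPM in MC26 and 63.5 to 85.7 CPM in M1B26. Of 7 neuron markers, STMN2, ELAVL3 and ELAVL4 were at 0 everywhere and TUBB3 was the 1 marker above 1 CPM, at 62.0 to 94.7 CPM in CT, 219 to 361 CPM in MC26 and 184 to 220 CPM in M1B26. Of 6 skeletal muscle markers, MYOD1, MYOG and CKM were at 0 and all stayed under 1 CPM, MYH3 reaching 0.876 CPM. The summed level of 7 luminal markers, carried by KRT8 and KRT18, was 843 to 974 CPM in CT, 645 to 674 CPM in MC26 and 857 to 886 CPM in M1B26. Of the 7, KRT19, ESR1 and ELF5 stayed under 1 CPM. GATA3 lay at 14.8 to 18.4 CPM in CT, 11.1 to 13.2 CPM in MC26 and 7.26 to 7.98 CPM in M1B26. Of 7 fibroblast markers 4 stayed under 1 CPM, while COL1A1 reached 17.5 CPM and DCN 47.3 CPM. LUM lay at most at 0.131 CPM in CT and 0.306 CPM in MC26, and at 4.38 to 6.20 CPM in M1B26. Of 5 leukocyte markers, CD3E was at 0, PTPRC and LYZ were below 0.1 CPM, and CD14 lay at 6.90 to 11.0 CPM in CT, 9.72 to 17.8 CPM in MC26 and 33.8 to 47.9 CPM in M1B26. The summed level of 6 neuroendocrine markers, carried by CHGB and SCG2, ran from 2.27 to 2.73 CPM in CT, from 4.97 to 5.15 CPM in MC26 and from 8.12 to 10.5 CPM in M1B26, with INSM1 at 0. The part of TUBB3, CD14 and the epithelial, luminal, fibroblast and neuroendocrine markers in the results was not tested.

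Most channel genes were silent or nearly so. Of the 137, 36 had no count in any library, 61 had counts but too few to test, none of them above 0.388 CPM, and 40 were tested. By family, among the pore subunits of voltage-gated potassium channels 6 of 30 genes were tested, and among those of voltage-gated calcium channels 0 of 10, whereas 7 of 15 2-pore-domain potassium channels, 4 of 16 inward rectifiers, 4 of 12 calcium- or sodium-activated potassium channel genes, 6 of 16 calcium channel auxiliary subunits and 6 of 16 nicotinic subunits passed. The difference between families was not tested. In any library 18 to 22 channel genes reached 1 CPM. Their summed level was 265 to 308 CPM in CT, 365 to 391 CPM in MC26 and 500 to 528 CPM in M1B26, and CHRNA9 alone made up 201 to 232 CPM of the last.

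**Figure D1:**
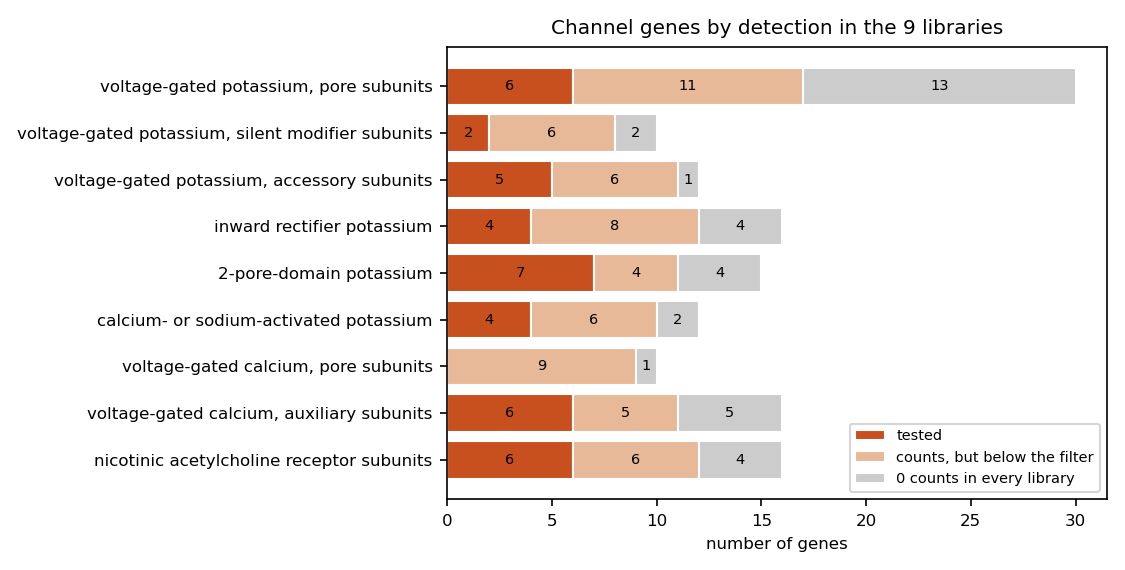
Channel genes by family and by detection in the 9 libraries. Bars count genes that were tested, that had counts below the filter, or that had 0 counts in every library. No calcium channel pore gene was tested, against 7 of 15 2-pore-domain potassium channels.

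Many of the detected channel genes differed between the lines. In MC26 against CT, 11 of the 40 were higher and 13 lower, compared with 18.8% higher and 19.9% lower among all 15717 genes tested. In M1B26 against CT, 15 were higher and 12 lower, with 25.2% and 23.7% over all genes. In M1B26 against MC26, 14 were higher and 5 lower, with 21.2% and 18.4% over all genes. Changes of at least 2-fold numbered 17 of 40 (42.5%) in MC26 and 19 of 40 (47.5%) in M1B26 against CT, and 13 of 40 (32.5%) between the lines, where the same call was made for 10.8%, 11.7% and 8.17% of all genes. For genes averaging under 10 CPM this share was 21.2%, 22.6% and 17.2% over all genes, and 44.8%, 51.7% and 31.0% over the 29 channel genes at that level. For genes of at least 10 CPM it was 3.88%, 4.50% and 2.17% over all genes. Over the 11 channel genes at that level it was 36.4%, or 4 genes, in each comparison. The levels are means over all 9 libraries, so CHRNA9, KCNJ15 and KCNQ3 reached 10 CPM only through lines where they are high. KCNIP3 reached it only through CT, where it is high. These were the 4 genes in MC26 against CT and in M1B26 against MC26. In M1B26 against CT KCNAB2 stood in place of KCNJ15. The share at this level is therefore a description. CHRNA9, whose rise was known beforehand, was among the 4 in each comparison. Median log2 fold changes of the 40 genes were −0.28, 0.19 and 0.26, and those of all genes were 0.00 in each comparison. The comparisons share libraries and are not independent. The count of 11 higher genes in MC26 became 7 without CT replicate 1 or without MC26 replicate 1, and the 14 higher in M1B26 against MC26 became 8 without MC26 replicate 2 or without M1B26 replicate 2. In bulk RNA, fewer cells expressing a gene and less RNA per cell cannot be told apart.

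Calls fell into many patterns, of which some are given here. CHRNA9, CHRNA7 and KCNAB3 rose in MC26 and rose further in M1B26. KCNIP3 fell in MC26 and fell further in M1B26. A group of 8 genes fell in both lines with no call between them, namely CACNA2D3, CACNB2, KCNJ11, KCNK15, KCNK3, KCNK5, KCNQ1 and KCNS3, and 4 rose in both with no call between them, namely CHRNA5, KCNAB2, KCNMB4 and KCNN3. Some of these calls were lost when 1 library was left out, as given with the genes below. KCNK3 lost its call in MC26 in 4 of 9 such fits (without CT replicate 1 or 3 or MC26 replicate 1 or 3, adjusted p up to 0.0721). KCNN3 lost its call in MC26 without CT replicate 1 or MC26 replicate 1 or 2 (adjusted p up to 0.0868) and in M1B26 without CT replicate 1 or M1B26 replicate 3 (adjusted p up to 0.139). A group of 5, CACNB3, CHRNB1, CHRNB2, KCNG1 and KCNK9, was higher in M1B26 than in CT and MC26, with no call in MC26 against CT. KCNK9 lost its call against CT without CT replicate 3 (adjusted p = 0.0509). Between the lines the calls of KCNG1 and CHRNB2 each held in 6 of 9 such fits (adjusted p up to 0.0660 and 0.112). KCNJ15 rose in MC26 alone and was lower in M1B26 than in MC26. CACNG8 fell in MC26 and rose in M1B26. No call was made in any comparison for 6 genes, KCNN4, KCNK1, KCNQ5, KCNJ14, CACNB4 and CHRNA10.

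**Figure D2:**
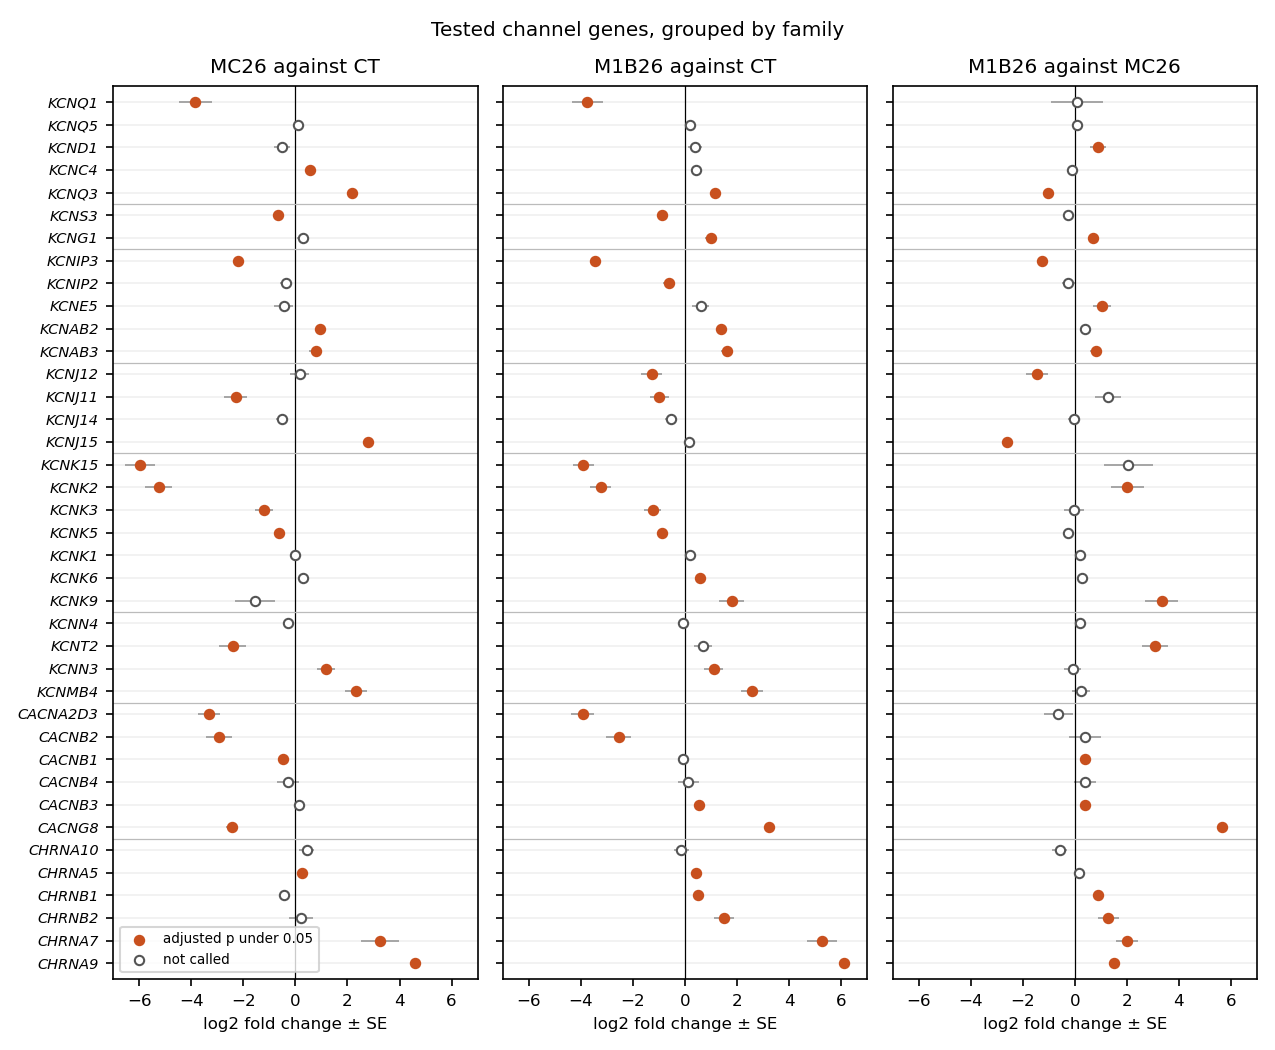
Log2 fold change with its SE for 39 of the 40 tested channel genes in the 3 comparisons, grouped by family. Filled points passed an adjusted p of 0.05 and open points did not. CHRNA9 and CHRNA7 lie at the right in both comparisons against CT, and CACNG8 changes side between them.

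The promoter sequences of 4 genes that carry these patterns are shown so that the genes can be compared. They are 250 bases up to the RefSeq start, from GRCh38.p14 and 5′ to 3′ on the gene's strand, and capitals mark GGCGCC, a sequence bound by BMP-activated SMAD proteins. The other motif searched was TTCNNNGAA, the sequence bound by STAT proteins downstream of IL6. Both read the same on either strand, and they do not overlap each other here. CHRNA9 (chr4:40335083-40335332, + strand) and KCNJ15 (chr21:38272258-38272507, + strand) rose, whereas KCNIP3 (chr2:95346408-95346657, + strand) and CACNA2D3 (chr3:54122302-54122551, + strand) fell. The starts of KCNJ15 and KCNIP3 lie inside the longer GENCODE gene, and which start the cells used was not analysed.
CHRNA9: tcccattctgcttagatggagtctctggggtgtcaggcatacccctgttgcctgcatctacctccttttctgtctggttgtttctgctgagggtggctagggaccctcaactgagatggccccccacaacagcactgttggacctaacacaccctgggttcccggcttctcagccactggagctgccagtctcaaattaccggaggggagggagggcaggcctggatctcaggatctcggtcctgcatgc
KCNJ15: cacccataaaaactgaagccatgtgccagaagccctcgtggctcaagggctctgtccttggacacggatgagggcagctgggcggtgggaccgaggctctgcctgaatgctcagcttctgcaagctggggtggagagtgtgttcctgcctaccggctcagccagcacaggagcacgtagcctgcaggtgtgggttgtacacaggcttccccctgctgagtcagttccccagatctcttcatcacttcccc
KCNIP3: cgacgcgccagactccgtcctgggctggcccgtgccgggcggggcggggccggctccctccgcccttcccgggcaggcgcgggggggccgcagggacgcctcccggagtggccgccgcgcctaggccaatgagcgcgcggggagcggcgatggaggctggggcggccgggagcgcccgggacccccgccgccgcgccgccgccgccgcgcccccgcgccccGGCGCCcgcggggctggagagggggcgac
CACNA2D3: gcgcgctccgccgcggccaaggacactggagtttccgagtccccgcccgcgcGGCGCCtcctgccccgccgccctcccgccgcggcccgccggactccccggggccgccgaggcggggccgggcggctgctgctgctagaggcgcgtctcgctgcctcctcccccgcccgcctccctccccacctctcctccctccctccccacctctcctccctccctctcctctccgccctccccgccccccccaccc
The first pair held 58% and 60% G and C with 3 and 6 CpG sites and neither motif. The second pair held 86% and 80.8% with 44 and 31 CpG sites and 1 GGCGCC each. The direction of change did not go with base composition throughout, since KCNK2, which fell, held 42.8% with 4 CpG sites and CHRNA7, which rose, held 80.4% with 31 CpG sites, both without either motif. The start used for CHRNA7 also lies inside the longer GENCODE gene, and its reads can be exchanged with those of CHRFAM7A, as given below. Over all 27305 promoters of this length, 16.1% held GGCGCC and 6.78% held TTCNNNGAA. A promoter was found for 28 of the 40 tested genes. Among the 8 of these that fell in M1B26 against CT, 4 held GGCGCC, the others being CACNB2 and KCNS3, and among the 8 that rose 1 did, CACNB3. It was held by 25% of the 28 tested promoters and by 37.5% of 24 promoters of channel genes with 0 counts. A link of the motif to the direction of change was not tested. A match describes letters and not a bound site.

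The nicotinic subunits rose or were not called, and none fell. Of 6 tested, 3 were higher in MC26 and 5 in M1B26 against CT, and 4 were higher in M1B26 than in MC26, where 18.8%, 25.2% and 21.2% of all genes were higher. These counts include CHRNA9, whose level in M1B26 was known beforehand. CHRNA9 encodes the α9 subunit, which forms channels alone or with α10 and is known from the hair cells of the inner ear. Its level was 2.74, 3.23 and 3.56 CPM in CT, 68.1, 90.6 and 71.7 CPM in MC26 and 201, 232 and 221 CPM in M1B26. The 3 groups did not overlap. Its log2 change was 4.59 (SE 0.14, adjusted p = 8.32e-09) in MC26 and 6.10 (SE 0.15) in M1B26 against CT, and 1.51 (SE 0.12) between the lines. Per kilobase of exon, CHRNA9 averaged 1.005 CPM in CT, 24.3 CPM in MC26 and 69.0 CPM in M1B26, while KCNN4, the highest channel gene of CT, averaged 21.2, 17.5 and 20.3 CPM.

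The α10 partner showed no called change. CHRNA10 averaged 0.200 CPM per kilobase in CT, 0.281 in MC26 and 0.188 in M1B26, and its log2 fold changes of 0.44 (SE 0.28) and −0.15 (SE 0.29) against CT were not called. Its exons overlap those of NUP98 on the same strand, so even these few reads are uncertain. CHRNA7, which encodes the α7 subunit of homomeric receptors, had 0, 3 and 1 counts in CT, 0.199, 0.261 and 0.282 CPM in MC26 and 0.879, 1.07 and 1.09 CPM in M1B26. Both differences against CT passed the test (log2 fold change 3.25, SE 0.72, adjusted p = 0.00474, and 5.26, SE 0.59, adjusted p = 4.02e-05), but their size rests on 4 counts in CT. Reads of CHRNA7 and its near-identical fusion copy CHRFAM7A can be exchanged, and CHRFAM7A averaged 0.0693, 0.00872 and 0.853 CPM in the 3 groups, so the value of either gene in M1B26 is uncertain.

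CHRNA5, an accessory subunit that joins other α and β subunits, was well expressed and moved little. It lay between 12.4 and 13.5 CPM in CT, 14.9 and 16.004 CPM in MC26 and 17.01 and 18.1 CPM in M1B26, a log2 difference from CT of 0.25 (SE 0.08, adjusted p = 0.0231) and 0.41 (SE 0.08, adjusted p = 0.00114). The call in MC26 was lost without CT replicate 1, MC26 replicate 1 or MC26 replicate 2, with adjusted p up to 0.102. Of the other subunits with a role in neurons or muscle, which are named here after their values were seen, CHRNB2 averaged under 1 CPM and rose in M1B26 by 1.49 (SE 0.39, log2), and CHRNB1, the β subunit of the muscle receptor, rose by 0.48 (SE 0.15, log2). CHRNB2 lost its call without CT replicate 1 (adjusted p = 0.0571), and CHRNB1 lost its own in 3 of 9 such fits (without CT replicate 3 or M1B26 replicate 1 or 3, adjusted p up to 0.0874). CHRNB1 and KCNAB3 lie on chromosome 17, where the median log2 fold change of all 843 tested genes in M1B26 was 0.48 against CT. Of 4 channel genes tested there, 2 were higher, 1 lower and 1 not called, with a median of 0.20. Within 500000 bases of KCNAB3, 23 of 44 tested genes were higher in M1B26 against CT, with 25.2% over all genes. CHRNA1, CHRNA2, CHRNB3 and CHRND had no counts.

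Genes that act with nicotinic receptors moved in both directions. Of 11 listed partners 6 were tested, with 2 higher and 2 lower in each line against CT, where 18.8% and 19.9% of all genes in MC26 and 25.2% and 23.7% in M1B26 were higher and lower. PSCA, a membrane-anchored protein of the Ly6 family, several of which bind nicotinic receptors, fell from 43.9, 32.0 and 47.9 CPM in CT to 8.36, 11.3 and 12.1 CPM in MC26 and 4.10, 4.69 and 5.49 CPM in M1B26. Its log2 change was −1.97 (SE 0.17, adjusted p = 1.13e-05) and −3.12 (SE 0.18, adjusted p = 5.65e-07). The receptor chaperone RIC3, named here after its values were seen, rose by 1.40 (SE 0.41) and 1.91 (SE 0.39) on the log2 scale while staying under 1 CPM in every library. Its call in MC26 was lost without CT replicate 3 or MC26 replicate 1 or 2 (adjusted p up to 0.0779). Of 8 genes for making, carrying and breaking down acetylcholine only the choline transporter SLC44A1 was expressed enough to test, and it was not called. Among 5 muscarinic receptors 1 was tested, CHRM3, whose log2 fold changes were −3.42 (SE 0.54) and −3.06 (SE 0.50).

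Among the pore subunits of voltage-gated potassium channels, KCNQ3 peaked in MC26. This gene, a subunit of the slow potassium current that restrains firing in neurons, had 5.29, 5.94 and 5.82 CPM in CT, 28.1, 26.8 and 21.8 CPM in MC26 and 12.96, 12.8 and 11.7 CPM in M1B26. The groups did not overlap, and M1B26 stood between the others. Log2 fold changes were 2.17 (SE 0.11, adjusted p = 3.69e-07) and 1.14 (SE 0.11, adjusted p = 1.45e-05) against CT and −1.03 (SE 0.10, adjusted p = 4.28e-05) between the lines. KCNQ5, of the same family, stayed between 15.3 and 19.98 CPM in all libraries and was not called. KCNQ1, the family member that works in many epithelia and is named here after its values were seen, fell from 0.472, 0.480 and 0.561 CPM in CT to at most 0.0739 CPM in any library of either line. Its exons overlap those of KCNQ1OT1 on the opposite strand.

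KCNS3 encodes a subunit that is silent alone and modifies other pores, and it fell in both lines. It lay at 9.04 to 11.7 CPM in CT, 6.47 to 6.96 CPM in MC26 and 4.76 to 6.63 CPM in M1B26, a log2 difference from CT of −0.65 (SE 0.14, adjusted p = 0.00326) and −0.90 (SE 0.14, adjusted p = 0.0003).

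The accessory subunits of voltage-gated potassium channels held a fall and 2 rises. KCNIP3 encodes a calcium-binding protein that modulates Kv4 pores and also binds DNA as a repressor. It was at 45.7, 34.0 and 43.3 CPM in CT, 7.66, 7.01 and 12.2 CPM in MC26 and 4.24, 3.57 and 3.53 CPM in M1B26, with no overlap between groups. Its log2 change was −2.20 (SE 0.19, adjusted p = 1.04e-05) in MC26, −3.45 (SE 0.20, adjusted p = 6e-07) in M1B26 and −1.25 (SE 0.20, adjusted p = 0.000863) between the lines. KCNAB2, a β subunit of Kv1 channels, rose from 20.3, 16.8 and 22.6 CPM to 39.0, 40.4 and 37.7 CPM in MC26 and 60.4, 56.4 and 38.2 CPM in M1B26, by 0.96 (SE 0.16, adjusted p = 0.00076) and 1.36 (SE 0.16, adjusted p = 4.69e-05) on the log2 scale. M1B26 replicate 3 lay among the MC26 libraries, and the difference between the lines, 0.40 (SE 0.15, adjusted p = 0.0554), became 0.58 (adjusted p = 0.0033) without it. NPHP4, which overlaps KCNAB2 on the opposite strand, averaged 17.5, 19.6 and 16.2 CPM in the 3 groups.

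KCNAB3, another β subunit, averaged 0.510 CPM in CT, 0.934 CPM in MC26 and 1.66 CPM in M1B26. The groups did not overlap, and the log2 fold change in M1B26 was 1.62 (SE 0.24, adjusted p = 0.000292). Its call in MC26, 0.79 (SE 0.25, adjusted p = 0.0305), was lost in 4 of the 9 fits that left out 1 library, namely CT replicate 1 or 2 or MC26 replicate 1 or 2, with an adjusted p up to 0.126. Between the lines the call, 0.83 (SE 0.23, adjusted p = 0.0165), was lost without MC26 replicate 3 (adjusted p = 0.0517) or M1B26 replicate 2 (adjusted p = 0.0546).

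Among inward rectifiers, which carry potassium best near the resting potential, KCNJ15 was raised in MC26 only. It had 4.52, 5.02 and 5.37 CPM in CT, 41.9, 35.6 and 25.0 CPM in MC26 and 6.36, 5.16 and 5.23 CPM in M1B26. CT and M1B26 overlapped, and all MC26 libraries lay far above both. Log2 fold changes were 2.78 (SE 0.18, adjusted p = 1.48e-06) in MC26, 0.17 (SE 0.18, adjusted p = 0.474) in M1B26 and −2.61 (SE 0.18, adjusted p = 3.15e-06) between the lines. DSCR8, which overlaps its exons, had at most 4 counts in any library. KCNJ11, the pore of the ATP-sensitive channel, stayed under 1 CPM and had log2 fold changes of −2.29 (SE 0.44, adjusted p = 0.00221) in MC26 and −1.001 (SE 0.37, adjusted p = 0.0415) in M1B26. The call in M1B26 held in only 2 of 9 fits that left out a library, those without MC26 replicate 1 or 3, with an adjusted p up to 0.149 in the others. ABCC9 encodes a regulatory subunit of such channels that senses nucleotides. ABCC9 had 2 counts over the CT libraries, 3.11, 4.16 and 4.40 CPM in MC26 and 4.96, 6.15 and 3.82 CPM in M1B26, a ratio of pooled counts to CT of 340 in MC26 (95% counting interval 94.2 to 2811) and of 427 in M1B26 (118 to 3523).

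The 2-pore-domain channels, which leak potassium at rest, held 4 lower genes of 7 tested in each line against CT, where 19.9% and 23.7% of all genes were lower. None was higher in MC26 and 2 were higher in M1B26, where 18.8% and 25.2% of all genes were higher. KCNK2, which opens on stretch and to arachidonic acid, had 4.001, 4.11 and 3.50 CPM in CT. In MC26 it was at 0, 0.0523 and 0.235 CPM and in M1B26 at 0.248, 0.379 and 0.573 CPM, so both lines lay far below CT. Log2 fold changes were −5.25 (SE 0.51, adjusted p = 2.29e-05) and −3.24 (SE 0.40, adjusted p = 8.41e-05). The difference between the lines, 2.01 (SE 0.63, adjusted p = 0.0263), lost its call in 4 of the fits that left out 1 library (MC26 replicate 1 or 2, M1B26 replicate 2 or 3), with an adjusted p up to 0.102.

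The level of the 2 most abundant leak channels moved less. KCNK5, an alkaline-activated channel of transporting epithelia, had 30.0, 26.6 and 29.9 CPM in CT, 16.8, 17.9 and 21.5 CPM in MC26 and 16.6, 14.2 and 16.2 CPM in M1B26, at −0.62 (SE 0.10, adjusted p = 0.000913) and −0.88 (SE 0.10, adjusted p = 6.03e-05) on the log2 scale. KCNK1 lay between 26.8 and 34.5 CPM in all libraries and was not called. KCNK15, named after its values were seen, had 0.729, 0.568 and 0.683 CPM in CT and 1 count over the MC26 libraries, a ratio of pooled counts of CT to MC26 of 83.0 (95% counting interval 14.9 to 3279).

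**Figure D3:**
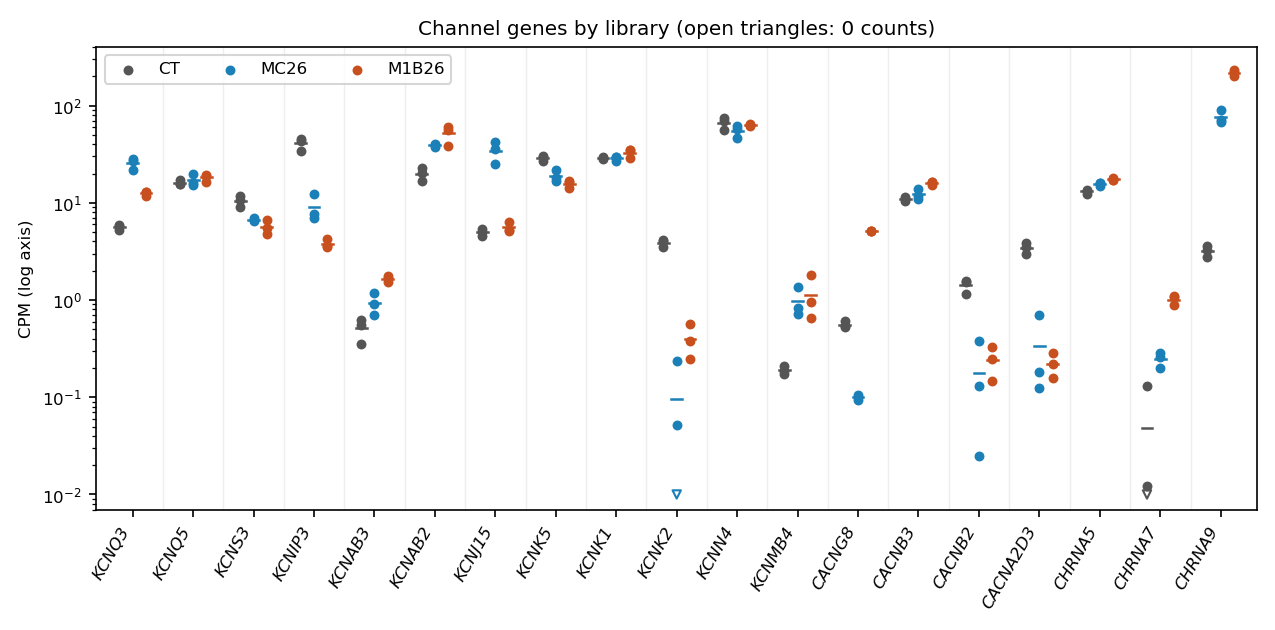
CPM of 19 channel genes in each of the 9 libraries, on a log axis. Points are libraries, short lines are group means and open triangles mark libraries with 0 counts. KCNJ15 and KCNQ3 peak in MC26, CHRNA9 in M1B26, and KCNIP3 descends from CT to M1B26.

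The most abundant potassium channel of CT was KCNN4, the calcium-activated channel of epithelia and lymphocytes. It had 69.1, 56.0 and 73.7 CPM in CT, 46.1, 56.8 and 61.0 CPM in MC26 and 63.7, 65.1 and 61.1 CPM in M1B26. The groups overlapped and no difference was called (log2 fold change −0.28, SE 0.11, adjusted p = 0.0733 in MC26). Without CT replicate 2 or MC26 replicate 3 the MC26 difference was called, at −0.38 and −0.37. KCNMB4, a β subunit of the large-conductance calcium-activated channel, rose from 0.186, 0.175 and 0.207 CPM to 0.721, 0.837 and 1.36 CPM in MC26 and 0.654, 0.947 and 1.81 CPM in M1B26. Both lines lay above CT and overlapped each other, with log2 fold changes of 2.32 (SE 0.44, adjusted p = 0.00183) and 2.56 (SE 0.43, adjusted p = 0.000597). KCNMA1, the pore of that channel, was below the filter.

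No pore gene of a voltage-gated calcium channel was expressed enough to test. The highest, CACNA1D, reached 0.171 CPM, and CACNA1F had no counts. Of 16 auxiliary subunits 5 had no counts, 5 were below the filter and 6 were tested, of which 4 were lower in MC26 against CT, with 19.9% over all genes, and 2 lower and 2 higher in M1B26, with 23.7% and 25.2%. CACNA2D3, an α2δ subunit that brings the pore to the membrane, had 3.53, 3.84 and 2.96 CPM in CT, 0.124, 0.183 and 0.706 CPM in MC26 and 0.158, 0.284 and 0.222 CPM in M1B26. Both lines lay below CT and overlapped each other, at −3.30 (SE 0.43, adjusted p = 0.000163) and −3.94 (SE 0.45, adjusted p = 4.26e-05). CACNB2, a β subunit of the L-type channel of the heart, fell from 1.54, 1.57 and 1.16 CPM to 0.0249, 0.131 and 0.376 CPM in MC26 and 0.248, 0.331 and 0.148 CPM in M1B26, at −2.94 (SE 0.50, adjusted p = 0.00102) and −2.56 (SE 0.47, adjusted p = 0.00111) on the log2 scale. CACNB3 was at 10.4 to 11.4 CPM in CT, 11.1 to 13.8 CPM in MC26 and 15.2 to 16.5 CPM in M1B26, which rose by 0.54 (SE 0.10, adjusted p = 0.0009).

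CACNG8 showed opposite changes in the lines. Despite its name, its protein is best known for carrying AMPA-type glutamate receptors to the synapse. It had 0.529, 0.612 and 0.537 CPM in CT, 0.0995, 0.105 and 0.0941 CPM in MC26 and 5.19, 5.18 and 5.13 CPM in M1B26. The groups were far apart and the spread within each was small. Log2 fold changes were −2.44 (SE 0.24, adjusted p = 2.34e-05) in MC26, 3.23 (SE 0.15, adjusted p = 1.23e-07) in M1B26 and 5.67 (SE 0.20, adjusted p = 5.64e-08) between the lines, and the MC26 value rests on 4 counts in each library.

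Several auxiliary subunits stood far above their usual pores. Pairs were chosen after the values were seen and are compared per kilobase of exon, which understates genes with long annotated exons. KCNIP3 averaged 5.15 CPM per kilobase in CT and 0.475 in M1B26, against 0.0694 and 0.0915 for the summed Kv4 pores KCND1, KCND2 and KCND3. KCNAB2 averaged 1.16 CPM per kilobase in CT and 3.002 in M1B26, while 7 of 8 Kv1 pores had no count in any library. CACNB3 averaged 1.53 and 2.23 CPM per kilobase in CT and M1B26, and the 10 calcium channel pores summed to 0.0159 and 0.0192. KCNMB4 averaged 0.234 in M1B26 and KCNMA1 0.000703. In each of these the subunit was above the summed pores in all 9 libraries.

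**Figure D4:**
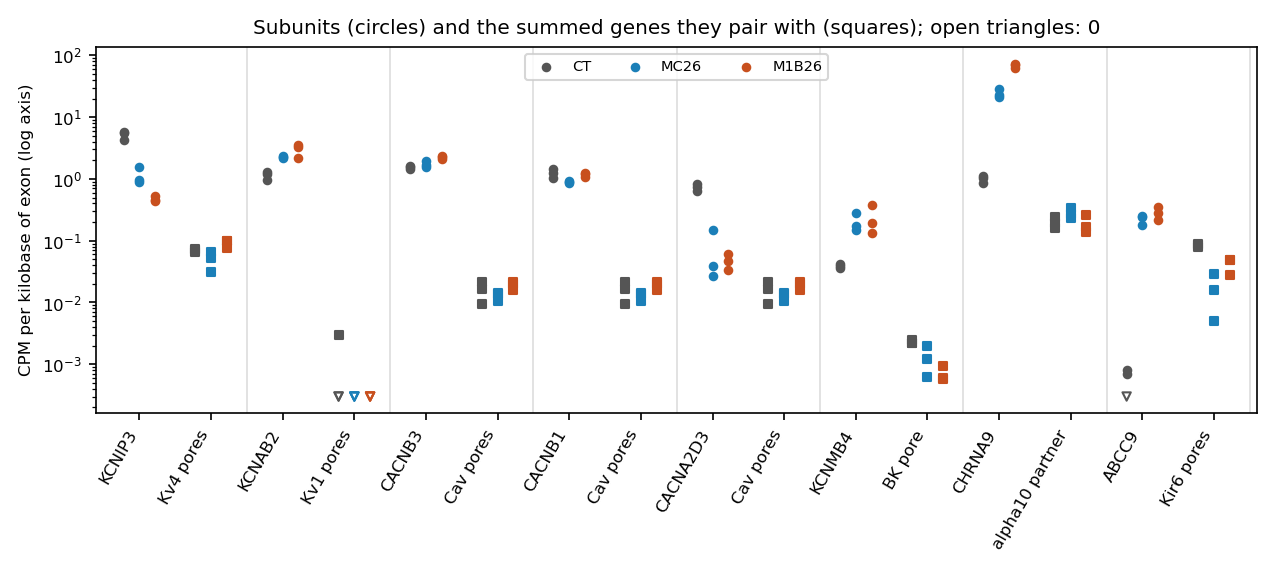
CPM per kilobase of exon, on a log axis, of a subunit (circles) and of the summed genes it usually pairs with (squares), by library. Open triangles mark libraries at 0. Circles lie above squares in every library except for ABCC9, which lies below the Kir6 pores in CT.

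Other genes of calcium handling, from lists of partners, gave the setting. Of 83 partner genes 49 were tested, with 9 higher and 15 lower in MC26 and 10 higher and 20 lower in M1B26 against CT, and 10 higher and 14 lower between the lines. Over all genes 18.8% were higher and 19.9% lower in MC26, 25.2% and 23.7% in M1B26, and 21.2% and 18.4% between the lines, so the share of higher partners in MC26, 18.4%, was close to that of all genes. Of 3 adaptors of L-type calcium channels 2 fell in both lines, STAC2 from 7.80, 5.94 and 6.73 CPM to 0.0249, 0.157 and 0.235 CPM in MC26 and 0.248, 0.213 and 0.240 CPM in M1B26 (log2 fold change −5.59, SE 0.34, and −4.86, SE 0.30), and STAC from a mean of 4.99 CPM to 0.699 and 1.40 CPM. The release channel of skeletal muscle, RYR1, had 1.56, 1.005 and 1.16 CPM in CT, 0 counts in MC26 and 0.180, 0.260 and 0.166 CPM in M1B26, which makes it at least 16.6-fold lower in MC26 than in CT against a floor of 3 counts per library. RYR2 fell from a mean of 3.36 CPM to 2.02 and 0.807 CPM. AKAP5, an anchor of kinases at channels, fell by 0.84 (SE 0.24, adjusted p = 0.0184) in MC26 and rose by 0.69 (SE 0.21, adjusted p = 0.0202) in M1B26 on the log2 scale, and both calls were lost with DESeq2 (adjusted p = 0.0502 and 0.0587) and without CT replicate 3. The call in MC26 was also lost without MC26 replicate 1 (adjusted p = 0.0794), and that in M1B26 without CT replicate 1 or M1B26 replicate 1 or 3 (adjusted p up to 0.0778).

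By list, calls of partners went in both directions, and with lists this short several counts lie near the shares of all genes, 18.8% higher and 19.9% lower in MC26 and 25.2% and 23.7% in M1B26. Of 12 genes for calcium release and store-operated entry 11 were tested, of which 2 were higher and 5 lower in MC26, and 1 higher and 6 lower in M1B26 against CT. Of 13 calcium pumps and exchangers 7 were tested, 2 higher and 2 lower in MC26 and 0 higher and 2 lower in M1B26. Among 15 potassium channel partners 8 were tested, with 2 higher and 2 lower in MC26 and 4 higher and 1 lower in M1B26. Among 13 regulators of calcium channels 9 were tested, with 1 higher and 2 lower in MC26 and 2 higher and 3 lower in M1B26. All 6 listed repressors of neuronal channel genes were tested, with 0 higher and 1 lower in MC26 and 1 higher and 5 lower in M1B26. REST, which silences many channel genes outside neurons and is named after its values were seen, had 42.4, 51.6 and 40.3 CPM in CT, 39.3, 40.7 and 38.1 CPM in MC26 and 31.8, 31.1 and 35.3 CPM in M1B26, a log2 difference from CT of −0.44 (SE 0.09, adjusted p = 0.00268) in M1B26.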

How the data were processed

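Poly-A RNA of 3 CT, 3 MC26 and 3 M1B26 cultures was measured, and titles gave each culture's group and number. The authors deposited raw counts per gene symbol, made after alignment to GRCh38 with STAR 2.7.3a and GENCODE 33. Their processing notes also name Salmon 1.1.0. All values were whole, non-coding genes were listed too, and the counting program, its use of strand and its handling of multiply aligned reads are not given in the sources used here. Reads of genes that overlap, as 20 of the 40 tested channel genes do on either strand, may thus be shared.

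The tests used edgeR 4.0.16 under R 4.3.3. All genes passing filterByExpr (minimum count 10) were kept, libraries were scaled by TMM, and 1 quasi-likelihood model with the group as its only term was fitted to the 9 libraries and 15717 genes. Calls were made at a 2-sided Benjamini-Hochberg adjusted p under 0.05 over all genes tested. SE is the absolute log2 fold change divided by the square root of F, and CPM used TMM-scaled library sizes. Counting intervals are exact, at 95%, and like the floor of 3 counts cover counting error only. Exon lengths and positions came from GENCODE 44 on GRCh38 and promoters from RefSeq on GRCh38.p14. A test on simulated counts with 200 changed genes recovered 85% of 2-fold changes in M1B26 against CT over 15717 genes. No library was a copy of another, the chi-square per degree of freedom between replicates being at least 10.5.

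The channel set and all gene lists were chosen with earlier results of these data known. Genes named are CHRNA9, in each comparison up to 8 called channel genes with the highest and 8 with the lowest log2 fold change (absolute value at least 1, at least 1 CPM in a group), the 10 channel genes with the highest CPM per kilobase, and up to 2 partner genes at each end. A few items are counted but not reported here by name. Others are named after their values were seen, to fill a family or pattern. Each result was recomputed with a replicate block, DESeq2 1.42.0, total counts alone, RLE factors, no filter, a stricter filter (mean count 50 or more), only the 6 libraries compared, and each library left out.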

Additional observations from a re-analysis of the deposited data

Results flagged for a closer look

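By the direct test of M1B26 against MC26, 14 of the 40 tested channel genes were higher and 5 lower. Over all genes 21.2% were higher and 18.4% lower. The 8 channel genes given here are among those that the naming rule picked, and other channel genes differed too. The log2 difference was 5.67 for CACNG8, 2.02 for CHRNA7, 2.01 for KCNK2, 0.83 for KCNAB3 and 0.39 for CACNB3, all higher in M1B26. It was −2.61 for KCNJ15, −1.25 for KCNIP3 and −1.03 for KCNQ3, all lower in M1B26. Every M1B26 library lay on the same side of every MC26 library for each of them. The difference of CHRNA9, 1.51, is a description with no test, since its rise in M1B26 was known when the set was chosen. CHRNA7 shares sequence with CHRFAM7A, KCNAB3 lies on chromosome 17, and the call of KCNK2 was lost in 4 of the 9 fits that left out 1 library. Their part in the differences was not tested.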

How the results depend on the processing

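Under the alternatives run, no difference of a named gene that was called in the main fit or in the alternative reversed its direction. Differences called in neither could change sign, as for CACNA2D3 between the lines, at −1.03 to 0.52 without single libraries. With a mean of at least 50 counts, which left 21 channel genes to test, 7 were higher and 8 lower in MC26 against CT, 9 higher and 5 lower in M1B26 against CT, and 7 higher in M1B26 against MC26. Leaving out 1 library gave 7 to 12 higher and 11 to 14 lower genes in MC26, 13 to 17 higher and 9 to 11 lower in M1B26 against CT, and 8 to 14 higher and 4 to 5 lower between the lines. Replicate numbers did not pair the libraries, since correlations of same-numbered deviations from the group means ran from −0.114 to 0.137. With the replicate block the counts were 10 and 13, 15 and 11, and 12 and 5 in the same order, and the call of KCNAB3 in MC26 was lost (adjusted p = 0.0600). With DESeq2 they were 10 and 12, 14 and 9, and 12 and 5. Of 81 named gene results, 11 changed their call under any alternative, among them KCNAB2 between the lines, which DESeq2 called (adjusted p = 0.0307). Scaling by total counts alone lowered the median log2 fold change of all genes by 0.08 in MC26 and 0.09 in M1B26 and moved the share of higher calls over all genes from 48.5% to 35.8% and from 51.5% to 39.6%, and over channel genes from 45.8% to 40.0% and from 55.6% to 51.9%. Libraries of 21425118 to 80076597 counts put the detection floor of the shallowest at 0.131 CPM, which limits what can be said of the 97 genes not tested.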

Other observations

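The genes around CHRNA9 moved in both directions. Its gene lies at chr4:40335333-40355217, and 4 other genes within 500000 bases were tested. In each line against CT 2 were higher and 1 lower. Over all genes 18.8% were higher and 19.9% lower in MC26, and 25.2% and 23.7% in M1B26. A cause shared with CHRNA9 was not tested. RHOH, a GTPase of blood cells whose start lies 144 kb away, had 0 counts in all CT libraries, 0.895, 0.680 and 0.612 CPM in MC26 and 0.428, 0.828 and 0.388 CPM in M1B26. Against a floor of 3 counts per library it was at least 10.4-fold higher in MC26 and at least 7.81-fold higher in M1B26 than in CT. Of the leukocyte markers, CD3E was at 0 in every library and PTPRC was below 0.1 CPM, while CD14 lay at 6.90 to 11.0 CPM in CT, 9.72 to 17.8 CPM in MC26 and 33.8 to 47.9 CPM in M1B26, and their part in this result was not tested. N4BP2 rose by 1.25 (SE 0.11) and 0.40 (SE 0.11) on the log2 scale, RBM47 changed by −0.66 (SE 0.17) and −1.27 (SE 0.18), and PDS5A was not called against CT. These genes were chosen by position alone, after the values of CHRNA9 were known.

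Near CACNA2D3 (chr3:54122552-55074557) a pair of genes fell with it. IL17RB, a receptor of IL17 cytokines, went from 1.39, 1.83 and 1.57 CPM in CT to 0, 0.0784 and 0.0471 CPM in MC26 and 0.271, 0.355 and 0.185 CPM in M1B26. CHDH, choline dehydrogenase, went from 6.04, 5.33 and 6.63 CPM in CT to a mean of 0.107 CPM in MC26 and 2.20 CPM in M1B26. The other tested neighbours moved less, SELENOK rising by 0.56 (SE 0.08) and ACTR8 falling by 0.18 (SE 0.07) in M1B26 on the log2 scale. No gene within 500000 bases of KCNJ15 was expressed enough to test.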
